A study of Mus musculus with 3 samples.

Results

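The genes described here are the core circadian clock genes Per1, Per2, Per3, Cry1, Cry2, Clock and Arntl (also written Bmal1) and the PAR bZIP genes Dbp, Tef and Hlf, measured in adult mouse cerebral cortex. They were taken as every gene probe whose accession maps to one of these RefSeq symbols, which gave 17 probes for 10 genes, of 41174 gene probes and 15724 named genes on the array. The mutant group was Gtf2i(+/Δex2) cortex, from animals heterozygous for the Δex2 allele of Gtf2i, and the comparison group was WT (+/+) cortex. Both groups were 16 weeks old and shared one mixed background, 98.4% C57BL/6J and 1.6% 129Sv/CD1. RNA of 3 to 5 mice per genotype was pooled before labelling. Each of 3 two-colour arrays compared a mutant pool with a WT pool. Cy3 labelled the mutant RNA on replicates 1 and 3, and Cy5 did so on replicate 2. Whether each array had pools of its own is not in the labels, and the p-values reflect the spread between arrays alone, which may be technical. The labels give no time of day for the dissection. No treatment is named for either group.

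The clock is a transcriptional loop. CLOCK and ARNTL bind E-boxes and switch on the Per and Cry genes, whose proteins return to the nucleus and repress CLOCK and ARNTL. DBP, TEF and HLF are leucine zipper factors with a proline and acidic amino acid rich (PAR) domain, are themselves outputs of the loop, and activate genes through D-boxes. In mice that lack all of them, the brain has less pyridoxal phosphate and seizures occur. Gtf2i encodes TFII-I, a transcription factor that binds initiator elements and E-boxes.

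Promoter windows are shown for the genes whose probes passed the test below (Tef, Hlf, Cry2 and Cry1) and for Per3, whose window held D-boxes, the PAR bZIP site. They are RefSeq windows on GRCm38.p6, from 250 bases before to 50 after a gene's start, found for 9 of the 10 genes in 14 windows. Capitals mark an E-box (CACGTG), an E-prime box (CACGTT) or a D-box (TTATGTAA or TTACGTAA), read on both strands. Among 32851 windows of this length, 7.15% held an E-box, 4.68% an E-prime box and 1.06% a D-box.
Tef, upstream start, chr15:81802423-81802722, plus strand: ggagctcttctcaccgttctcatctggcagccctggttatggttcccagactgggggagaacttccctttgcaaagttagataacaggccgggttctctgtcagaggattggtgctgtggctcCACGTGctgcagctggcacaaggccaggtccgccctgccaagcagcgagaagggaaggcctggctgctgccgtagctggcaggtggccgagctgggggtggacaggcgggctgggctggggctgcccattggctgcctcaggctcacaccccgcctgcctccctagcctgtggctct
Tef, downstream start, chr15:81811164-81811463, plus strand: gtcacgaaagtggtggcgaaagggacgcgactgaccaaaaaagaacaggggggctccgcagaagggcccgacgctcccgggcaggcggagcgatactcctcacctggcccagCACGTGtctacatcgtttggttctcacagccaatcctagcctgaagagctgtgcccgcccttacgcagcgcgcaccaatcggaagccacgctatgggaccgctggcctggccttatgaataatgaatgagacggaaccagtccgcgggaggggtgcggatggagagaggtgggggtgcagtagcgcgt
Hlf, chr11:90390868-90391167, minus strand: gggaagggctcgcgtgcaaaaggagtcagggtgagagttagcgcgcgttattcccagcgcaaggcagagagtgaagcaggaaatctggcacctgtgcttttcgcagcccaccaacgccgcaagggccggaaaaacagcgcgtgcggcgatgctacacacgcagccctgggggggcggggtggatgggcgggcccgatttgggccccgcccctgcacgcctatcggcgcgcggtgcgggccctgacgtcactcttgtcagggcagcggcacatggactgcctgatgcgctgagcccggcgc
Cry2, chr2:92434020-92434319, minus strand: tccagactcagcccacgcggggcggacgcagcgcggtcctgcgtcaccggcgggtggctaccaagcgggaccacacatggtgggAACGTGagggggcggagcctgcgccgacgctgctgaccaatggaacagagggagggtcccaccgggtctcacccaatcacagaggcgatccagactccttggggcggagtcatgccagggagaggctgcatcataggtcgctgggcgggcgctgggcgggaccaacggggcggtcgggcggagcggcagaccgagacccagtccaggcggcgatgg
Cry1, chr10:85185005-85185304, minus strand: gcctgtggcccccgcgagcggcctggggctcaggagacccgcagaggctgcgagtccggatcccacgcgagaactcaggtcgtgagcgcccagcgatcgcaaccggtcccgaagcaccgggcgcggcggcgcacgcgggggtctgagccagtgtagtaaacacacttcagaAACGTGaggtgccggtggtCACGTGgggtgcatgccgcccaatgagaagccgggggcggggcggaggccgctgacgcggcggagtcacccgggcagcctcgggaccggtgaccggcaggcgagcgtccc
Per3, chr4:151044616-151044915, minus strand: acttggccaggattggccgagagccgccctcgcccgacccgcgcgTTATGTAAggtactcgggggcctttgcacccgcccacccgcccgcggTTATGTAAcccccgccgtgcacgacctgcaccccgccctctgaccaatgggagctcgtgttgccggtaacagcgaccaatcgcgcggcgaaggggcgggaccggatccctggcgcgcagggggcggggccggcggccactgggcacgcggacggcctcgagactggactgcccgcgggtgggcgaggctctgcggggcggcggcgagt
Both Tef windows held an E-box, 127 and 138 bases before their starts. The Cry1 window held an E-box and an E-prime box, 60 and 79 bases before the start, and the Cry2 window held an E-prime box 166 bases before it. The Per3 window held 2 D-boxes, 205 and 158 bases before the start, and was the only 1 of the 14 windows with that motif. In the Hlf window none of these motifs was found, but a CRE (TGACGTCA), present in 1.79% of all windows, lay 9 bases before the start. Of the windows not printed, 1 of the 2 for Per1 held an E-box, and those of Dbp, Clock and Arntl held no E-box, E-prime box or D-box. A match describes these letters only and is not evidence of binding.

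Values are log2 ratios of mutant over WT intensity, a direction that is likely and not stated outright. It rests on the titles, which put the mutant first, and on the deposited readme, which calls the fold test over control. On every array the numerator is the corrected channel named Cy5, although Cy3 labelled the mutant on replicates 1 and 3. If that name gave the dye on those arrays, the directions and the mutant and WT intensities given for them would be reversed. The ratio of the Pro25G control spots changed sign on the array with exchanged dyes (4.51, -4.54 and 4.58 on replicates 1 to 3). That sign change bears on whether replicate 2 was turned to match the other arrays. It cannot tell which genotype is the numerator, because the dye of these spots was not established. In the likely direction Gtf2i itself was lower in mutant pools, with mean log2 ratios of -0.47 and -0.32 at its 2 probes, and where these probes lie relative to exon 2 was not analysed here. Of the members' 17 probes, 14 were flagged reliable (foreground above 2 times background) on all 3 arrays and were tested, and every gene kept at least 1 of them. The probes left out were 1 each of Cry1, Cry2 and Clock.

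Tef and Hlf were lower in mutant cortex, Cry2 was lower, Cry1 was slightly higher, and the Period genes, Clock, Arntl and Dbp did not pass. Of the 14 tested probes, 5 passed an adjusted p of 0.05 in limma, 4 lower and 1 higher. That is 35.7%, against 33.9% of all 27530 tested probes, so calls were about as frequent among these probes as across the array with all 3 arrays. Without replicate 1 the shares were 21.4% of these probes and 8.75% of all, and with replicates 1 and 2 averaged 28.6% and 18.6%. By direction, 18.9% of all tested probes were called lower and 15% higher. The median log2 ratio was -0.14 over the 14 probes, 11 of them below 0, and 0.00 over all tested probes, 50.4% of them below 0. By gene, 3 of 10 were lower and 1 higher, or 40% called, against 40.7% of the 12721 named genes. The sizes ranged from a log2 ratio of -0.52 to 0.22.

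**Figure D1:**
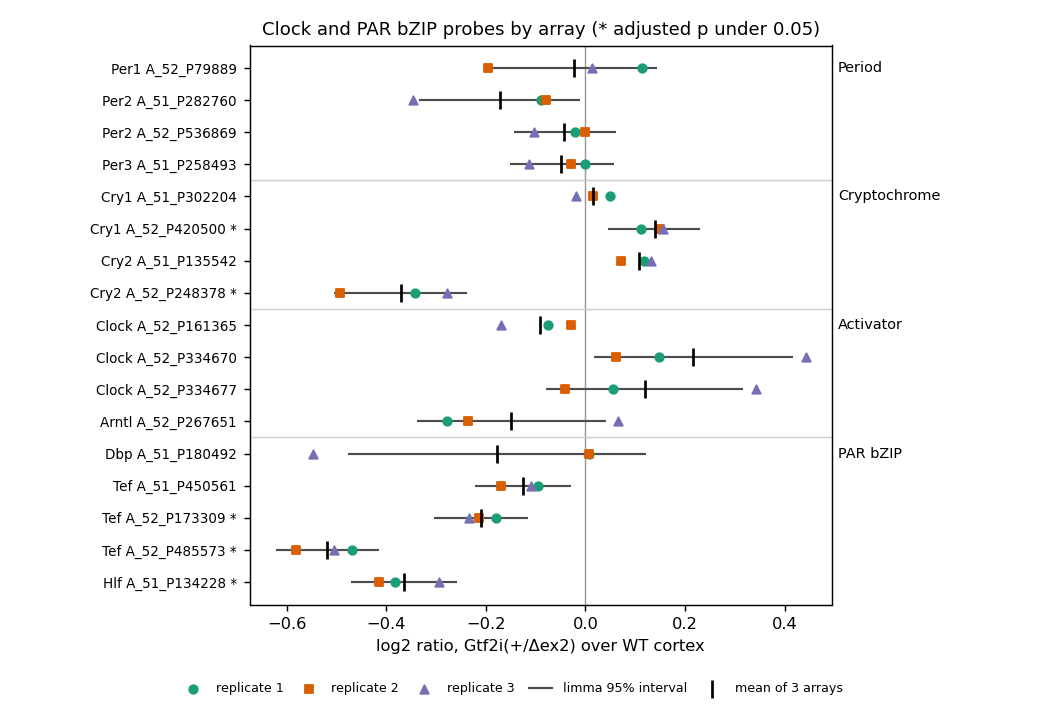
Log2 ratio of Gtf2i(+/Δex2) over WT (horizontal axis) for the 17 probes of the clock and PAR bZIP genes, grouped by role. Symbols are the 3 arrays, black ticks their mean and lines limma's 95% interval, which the 3 untested probes lack. The 3 arrays stand close together for Tef and Hlf, and replicate 3 stands apart for Dbp, Clock and Arntl.

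Among the PAR bZIP genes, Tef and Hlf fell. The brightest Tef probe, A_52_P485573, had intensities of 3051, 3510 and 3755 in mutant pools on replicates 1 to 3, against 4224, 5245 and 5327 in WT pools. Every mutant value lay below every WT value. The log2 ratio was -0.52 ± 0.06 (SD, n = 3 arrays; limma adjusted p = 0.00259), or 69.8% of WT, with a 95% interval from -0.62 to -0.41. A lower ratio was seen for 2.09% of all tested probes; were the direction turned, that share would have a higher one.

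The other Tef probes were dimmer and moved less. A_52_P173309 read 144.8, 144.8 and 159.1 in mutant pools, against 164.0, 168.0 and 187.1 in WT pools, a log2 ratio of -0.21 ± 0.03 (SD, n = 3; limma adjusted p = 0.0124). A_51_P450561 read 196.6, 192.9 and 203.3 in mutant pools, against 210.1, 216.9 and 219.3 in WT pools, and at -0.12 ± 0.04 (SD, n = 3) it missed the threshold (limma adjusted p = 0.0575). The negative control spots had medians of 72.3 to 81.4, against means of 149.6 and 197.6 for these 2 probes in mutant pools. With that level subtracted from both channels they read -0.43 and -0.21, with limma adjusted p of 0.00679 and 0.0326, while the bright probe read -0.53. All 3 probes match one accession and share the same RNA, so they are not independent samples of the change.

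Hlf, which in the brain is one of the abundant PAR bZIP factors, was lower on every array. Its single probe read 1270, 1434 and 1736 in mutant pools, against 1657, 1912 and 2129 in WT pools. The mutant and WT ranges overlap across arrays, but within each array the mutant channel was the lower one. The log2 ratio was -0.36 ± 0.06 (SD, n = 3; limma adjusted p = 0.00442), or 77.7% of WT. Its 95% interval, from -0.47 to -0.26, overlaps those of the bright Tef probe and of A_52_P173309 (from -0.30 to -0.12), so Tef and Hlf are not ranked.

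Dbp, the member whose transcript cycles most strongly in many tissues, differed between pools on 1 array only. Its probe read 7457, 7528 and 6729 in mutant pools, against 7416, 7486 and 9830 in WT pools. Replicates 1 and 2 had the same log2 ratio, 0.01, and replicate 3 stood at -0.55. The mean of -0.18 ± 0.32 (SD, n = 3) did not pass (limma adjusted p = 0.293; 95% interval from -0.48 to 0.12), and without replicate 3 it was 0.01. A gap between replicate 3 and the mean of the other arrays larger than that of Dbp was seen for 1.02% of all tested probes. Pdxk, which encodes pyridoxal kinase and is a PAR bZIP target in mouse brain, had a log2 ratio of -0.11 ± 0.09 at its tested probe (SD, n = 3; limma adjusted p = 0.133).

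**Figure D2:**
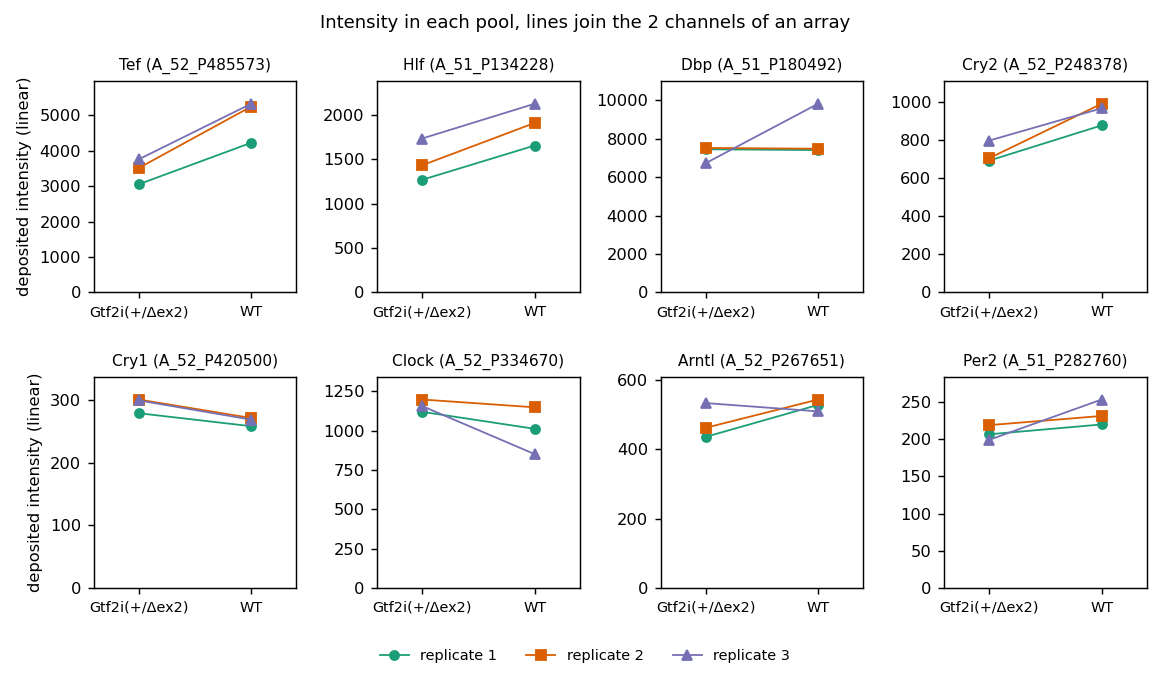
Deposited intensity (vertical axis, linear, from 0) of 8 probes in Gtf2i(+/Δex2) and WT pools, with a line joining the channels of each array. Tef, Hlf and Cry2 are lower in the mutant on all 3 lines and Cry1 higher, while the Dbp lines of replicates 1 and 2 are flat (log2 ratio 0.01) and that of replicate 3 is not.

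The cryptochromes, which form the repressing arm with the Period proteins, went opposite ways. Cry2 probe A_52_P248378 read 690.3, 702.8 and 795.3 in mutant pools, against 875.0, 988.4 and 964.6 in WT pools. The groups did not overlap. The log2 ratio was -0.37 ± 0.11 (SD, n = 3; limma adjusted p = 0.00688), or 77.3% of WT. Its other probe, A_51_P135542, was reliable on 1 array and was not tested; it read 140.6, 127.1 and 123.9 in mutant pools, against 129.6, 120.9 and 113.1 in WT pools, a mean ratio of 0.11 with the opposite sign.

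Cry1 showed a small rise. Probe A_52_P420500 read 279.2, 301.1 and 299.7 in mutant pools, against 258.5, 271.6 and 269.0 in WT pools, and the groups did not overlap. The log2 ratio was 0.14 ± 0.02 (SD, n = 3; limma adjusted p = 0.0387), or 110.1% of WT. That call held in 6 of 12 alternative settings, with adjusted p from 0.00366 to 0.205, and was lost without any one of the arrays. The second Cry1 probe, reliable on no array, averaged 0.02.

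No Period gene passed. Per1, which also responds to neuronal activity and glucocorticoids, read 589.3, 567.0 and 643.2 in mutant pools, against 544.8, 649.4 and 637.0 in WT pools, and its ratio had no common sign (0.11, -0.20 and 0.01). Its mean was -0.02 ± 0.16 (SD, n = 3; limma adjusted p = 0.812; 95% interval from -0.19 to 0.14). Per2 probe A_51_P282760 read 206.4, 218.7 and 198.9 in mutant pools, against 219.6, 231.0 and 253.1 in WT pools. Its mean of -0.17 ± 0.15 missed the threshold (SD, n = 3; limma adjusted p = 0.0945), and -0.35 on replicate 3 stood apart from -0.09 and -0.08. The other Per2 probe averaged -0.04 and the Per3 probe, for the gene whose printed promoter carries 2 D-boxes, -0.05, with 95% intervals from -0.14 to 0.06 and from -0.15 to 0.06.

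The activators Clock and Arntl, whose proteins act as a dimer, did not share a direction and did not pass. Clock probe A_52_P334670 read 1121, 1199 and 1158 in mutant pools, against 1013, 1149 and 851.9 in WT pools. Its ratios were 0.15, 0.06 and 0.44, with a mean of 0.22 ± 0.20 (SD, n = 3; limma adjusted p = 0.089). Clock probe A_52_P334677 had a like order of arrays, 0.05, -0.04 and 0.34, and a mean of 0.12. Arntl read 435.4, 461.5 and 532.8 in mutant pools, against 527.6, 543.1 and 508.9 in WT pools. Its ratios were -0.28, -0.24 and 0.07, with a mean of -0.15 ± 0.19 (SD, n = 3; limma adjusted p = 0.182). Without replicate 3 the Arntl ratio was -0.26 and passed (limma adjusted p = 0.00592; range over 12 alternatives 0.00265 to 0.597).

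Replicate 3 was thus where several clock genes differed from the other arrays. Between replicate 3 and the mean of replicates 1 and 2 the log2 ratio differed by -0.55 for Dbp, 0.34 and 0.33 at the Clock probes, 0.32 for Arntl and -0.26 at the Per2 probe A_51_P282760, but by 0.02 for the bright Tef probe and 0.10 for Hlf. Gaps larger than those of Clock and Arntl were seen for 4.7% to 5.35% of tested probes. Some thalamic markers also moved on this array: the 11 tested probes of 6 listed genes averaged -0.04, -0.06 and 0.67 on replicates 1 to 3. On replicate 3 the brighter Tcf7l2 probe read 1.76 and the Zic1 probes 1.43 and 1.36. The dimmer tested Tcf7l2 probe read 0.02 there and the tested Lhx9 probe 0.15. The summed intensity of the 11 thalamic probes ranged from 9489 to 11713 in mutant pools. In WT pools it was 9816, 10467 and 4607, the last on replicate 3. Probes of endothelium and pericytes averaged 0.04, -0.08 and 0.41 on replicates 1 to 3, with 2 of 5 higher. Those of Rgs5 (0.53, 0.43 and 0.66) and Pdgfrb (0.28, 0.31 and 0.49) were higher on every array, while Cldn5 read -0.35, -0.43 and 0.27. Striatal probes averaged -0.28, -0.36 and 0.08, with 2 of 8 lower. Hippocampal probes averaged 0.01 on replicate 1 and -0.19 on replicate 3, with 0 of 5 called. Among them Neurod6 read 0.04, 0.06 and -0.59 on replicates 1 to 3, while Calb1 read 0.08 on replicate 3. Of all tested probes, 15% were called higher and 18.9% lower. The part of these markers' tissues in the ratios of Clock, Arntl and Dbp was not tested. In pooled tissue fewer cells of a type and less RNA per cell cannot be told apart.

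Of the markers listed for cortical neurons, 7 of 8 genes had a tested probe, among them Slc17a7, Camk2a, Tbr1, Gad1 and Gad2, while Rbfox3 had none. These 11 neuron probes averaged -0.17, -0.19 and -0.02 on the 3 arrays, with 5 lower and 2 higher, where 18.9% and 15% of all tested probes were called lower and higher. Their summed intensity ranged from 127180 to 158869 in mutant pools and from 112286 to 140917 in WT pools. That sum was higher in the mutant on replicates 1 and 3 and lower on replicate 2, unlike the mean ratio, and most of it came from Snap25, with 2 of its 3 probes called higher. Astrocyte probes, 9 for 6 of 7 genes, averaged -0.27, -0.24 and -0.25, with 5 lower and, against the average, Gja1 higher at 0.39, and with summed intensities of 24721 to 29401 in mutant pools and 29414 to 31703 in WT pools. Oligodendrocyte probes averaged -0.22, -0.29 and -0.08, with 4 of 11 lower and 1 higher, and blood probes -0.49, -0.53 and -0.07, with 4 of 6 lower. Their summed intensities were 54931 to 69427 and 27665 to 32513 in mutant pools, against 60488 to 80837 and 32821 to 43586 in WT pools. Microglial probes averaged -0.14, -0.12 and -0.11, with 4 of 7 lower and 1 higher, and choroid plexus probes 0.20, 0.22 and 0.19, with 3 of 6 higher. The part of these cell types in the lower Tef, Hlf and Cry2 signals was not tested. Of 6 genes listed as markers of the suprachiasmatic nucleus, the hypothalamic pacemaker, 4 had a tested probe and 0 passed in limma. The pools were of cortex, so signal of these genes is not read as coming from that nucleus. Vip had an unadjusted limma p of 0.0497 (log2 ratio 0.28 ± 0.30, SD, n = 3).

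**Figure D3:**
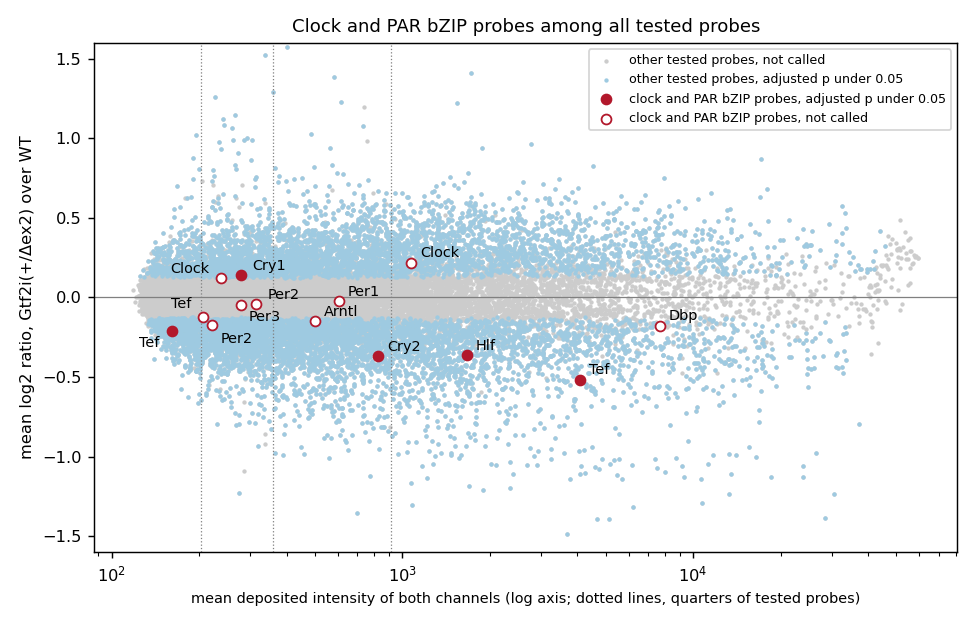
Mean log2 ratio of Gtf2i(+/Δex2) over WT (vertical axis) against mean intensity of both channels (log axis) for the tested probes, with the 14 clock and PAR bZIP probes in red, filled where called. Dotted lines divide the tested probes into 4 equal groups by intensity, and 4 probes lie more than 1.6 from 0 and are not drawn. The bright Tef probe and Hlf lie right of centre, below 0, and the other called Tef probe lies among the dimmest.

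Across the array, calls were more frequent among brighter probes. With the tested probes in 4 equal groups by intensity, 14.1% of the dimmest were called, then 30.4%, 40.8% and 50.3% of the brightest. The bright Tef probe, Hlf, Dbp and Clock A_52_P334670 lay in the brightest group, where 26.6% of probes were called lower and 23.6% higher, and 2 of these 4 were called, both lower. Cry2 lay in the next group, where 22.6% were called lower and 18.2% higher. The called Cry1 probe lay in the group below that, where 17.3% were called lower and 13% higher. Tef A_52_P173309 was in the dimmest group, where 8.88% were called lower and 5.26% higher. The share of clock and PAR bZIP probes called was thus, with all 3 arrays, near that of the array as a whole.

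The patterns most like that of the bright Tef probe were, by Euclidean distance over the 3 arrays, those of Rasgrf1 (distance 0.016 on the log2 scale; ratios -0.47, -0.58 and -0.52), Gripap1 (0.03) and Prkar1b (0.037). They encode a Ras guanine nucleotide exchange factor, a GRIP1-associated protein and a regulatory subunit of protein kinase A. In all, 36 other tested probes lay within a distance of 0.1, among 27530 tested. The 3 named genes were thus not the only ones this close.

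Other clock genes were examined as lists set by role. Of 46 genes 41 had a probe and 35 a tested one. Taking the probe with the smallest p, 8 genes were lower and 8 higher; taking the brightest probe, 5 were lower and 8 higher, and 31 of 35 genes kept the same call. Of all named genes, by the probe with the smallest p, 23.6% were lower and 17.1% higher. By probe, 21 of 53 passed (39.6%, against 33.9% of all tested probes), with a median log2 ratio of 0.07 against 0.00.

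Genes that set the turnover of clock proteins moved in both directions, with 3 of 6 probes lower and 3 higher, against 18.9% and 15% of all tested probes. Fbxw11, a beta-TrCP protein that acts on Period proteins, was higher at 0.38 ± 0.07 (SD, n = 3; limma adjusted p = 0.00448). Fbxw7, whose protein targets NR1D1 among many substrates, was lower at both probes, -0.65 ± 0.03 and -0.71 ± 0.08 (limma adjusted p = 0.00197 and 0.00206). Usp2, a deubiquitinase whose transcript is itself clock controlled, was lower on every array (-0.40, -0.39 and -0.45; mean -0.42, limma adjusted p = 0.00307).

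Clock kinases were mixed, with 3 of 11 probes lower and 3 higher (54.5% called, against 33.9% of all tested probes). Gsk3b, which phosphorylates several clock proteins, was lower at both probes (-0.73 ± 0.24 and -0.40 ± 0.18, SD, n = 3; limma adjusted p = 0.00526 and 0.0133). Csnk1e, a casein kinase that phosphorylates Period proteins, was higher at its bright probe (0.18 ± 0.10; limma adjusted p = 0.0471), while its dim probe averaged 0.01. The 2 called probes of Csnk2a1 disagreed, at -0.30 and 0.30, and Csnk1a1 had 1 probe at 0.36 past it and 2 at -0.12 and -0.09 that were not. For Csnk2a1 and Csnk1a1 no single direction can be given.

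In the transcription loop 3 of 10 probes passed (30%, against 33.9% of all tested probes). Nr1d1, which encodes the repressor REV-ERB alpha, was lower at 1 probe (-0.23 ± 0.15, SD, n = 3; limma adjusted p = 0.0416) and stood at -0.01 at the brighter one. Nfil3, the repressor that competes with PAR bZIP proteins for D-boxes, was called lower at a dim probe (-0.26) and higher at a brighter one (0.31). Rora, an activator of Arntl that the thalamus also expresses, read 0.22 at both probes without passing, with 0.55 and 0.59 on replicate 3. Npas2, a partner of ARNTL in forebrain, was reliable on no array and was not tested.

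Among partners of the loop, 3 of 9 probes were lower and 0 higher, or 33.3% called against 33.9% of all tested probes. They were those of Wdr5, a histone methyltransferase subunit found with Period proteins, at -0.22 ± 0.03, Sirt1 at -0.28 ± 0.13 and Timeless at -0.17 ± 0.05 (SD, n = 3; limma adjusted p = 0.0104, 0.0183 and 0.0289). The other tested probes of Sirt1 and Timeless averaged 0.09 and 0.08. The cold-induced genes Cirbp and Rbm3 read 0.13 and 0.22 without passing. Among outputs, 2 of 10 probes passed (20%), below the share of all tested probes, for Coq10b (0.33 ± 0.16; limma adjusted p = 0.0195) and Nampt (0.16 ± 0.05; limma adjusted p = 0.0305). Their other tested probes averaged 0.14 and 0.12. Among glucocorticoid-responsive genes, 1 of 7 probes passed (14.3%), likewise below the share of all tested probes. It was a probe of the receptor gene Nr3c1 (0.17 ± 0.09, limma adjusted p = 0.0474), whose other tested probe averaged 0.04. Sgk1 read 0.54, 0.56 and -0.28 on replicates 1 to 3, again with replicate 3 apart.

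**Figure D4:**
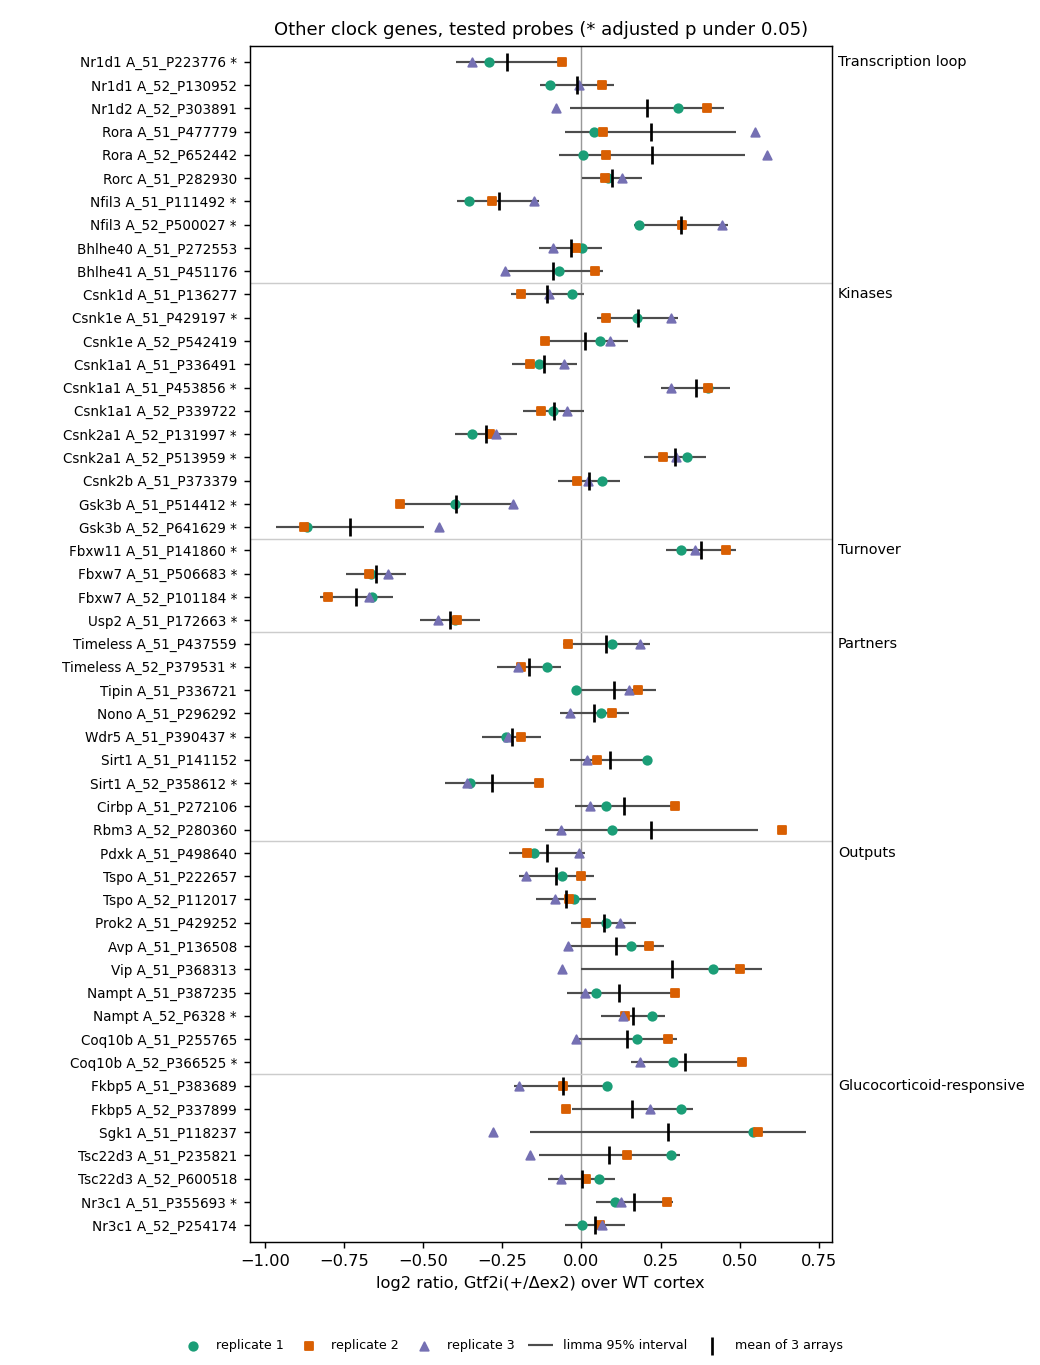
Log2 ratio of Gtf2i(+/Δex2) over WT (horizontal axis) for 51 of the 53 tested probes of other clock genes, by role. Symbols are the 3 arrays, black ticks their mean, lines limma's 95% interval and asterisks mark an adjusted p under 0.05. Fbxw11 stands right of 0 and Fbxw7, Usp2 and Gsk3b left of it on all 3 arrays.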

How the data were processed

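Per the labels' protocols, 500 ng of total RNA was amplified and labelled for two-colour Agilent 60-mer arrays. The authors deposited linear intensities of 44290 spots per array, background-subtracted, normalized and corrected for the dye swap, with GenePix as image software per the deposited readme, which names no normalization method. They also deposited a log2 ratio with repeated spots collapsed and a signed fold score, identical in the value table of the series at every spot, whose medians were -1.01, -1 and 1 on replicates 1 to 3. The deposited files name no genome build, so no probe coordinates are given.

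Here, log2 ratios of the deposited channels, named Cy5 over Cy3 and read as mutant over WT, were averaged over spots of a probe, giving 41174 probes. Accessions matched without versions to RefSeq genes of GRCm38.p6 named 21445 probes (52.1%). Probes reliable on at least 2 arrays (27530) were tested against 0 with limma 3.58.1 (lmFit, eBayes) in R 4.3.3, and p-values were adjusted by Benjamini-Hochberg over all of them. Reliable gene spots made up 64.4% to 69.7% of each array; 3 arrays limit the precision. The text names every member, Gtf2i, each called gene of the other clock lists, and the 3 named genes outside these lists nearest to the member probe with the smallest p. Pdxk, Rora, Npas2, Cirbp, Rbm3, Sgk1, Vip and the other markers named singly fall outside that rule and were chosen after their values were seen. A called gene of the lists is counted but not reported here. The fit was tested on simulated arrays with independent noise, which cannot address whether the real arrays shared pools. The members and lists were chosen with earlier results of these data known. Alternatives were loess, median centring, dim-probe filters, negative controls subtracted (intensity floor 10), a dye term, array weights, the collapsed ratio, replicates 1 and 2 averaged, and leaving out each array. Figures used matplotlib 3.10.9, pandas 2.3.3 and Python 3.11.15.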

Additional observations from a re-analysis of the deposited data

How the results depend on the processing

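The lower ratios of Hlf, Cry2 and the bright Tef probe kept their sign and passed under all 12 alternatives, with adjusted p up to 0.0449, 0.0481 and 0.0251 in limma. Tef A_52_P173309 passed under 11 of 12 and was lost without replicate 1 (limma adjusted p = 0.0972). Member probes called numbered 9 with array weights, which favoured replicate 1, and from 3 (without replicate 1) to 5 with 1 array left out. For other clock genes the count was 37 with array weights, 13 with replicates 1 and 2 averaged, and from 8 (without replicate 1) to 26 (without replicate 3). Over all probes these settings gave 18617, 5122, and from 2409 (without replicate 1) to 9885 (without replicate 3), against 9333. Signs turned, without a call on either side, for Dbp without replicate 3 and for Per1 with array weights (0.089) and without replicate 2. With 1 array left out, Dbp ranged from -0.269 to 0.008 and Per1 from -0.091 to 0.064. The cause was not tested. Counting each gene by its brightest probe changed no call among the 10 genes. No probe of the array passed the test for the dye in limma, while 2409 had an unadjusted p under 0.05. Only replicate 2 had the dyes exchanged, so this test cannot tell dye from array. With 3 arrays it has little power, and an absence of dye effects cannot be read from it. The ratio within an array already pairs the genotypes, so the main test is a paired one. It leaves 1 group of ratios and no further numbers to block on, so no further pairing was possible. Signal over background limits the dim probes of Tef, Per2, Cry1, Cry2 and Clock. With negative controls subtracted, Per2 A_51_P282760 moved from -0.172 to -0.28 and did not pass (limma adjusted p = 0.0924). Cry1 A_52_P420500 moved from 0.139 to 0.183 and lost its call (limma adjusted p = 0.0547).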
